A study of Mus musculus with 2 samples.

Results

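The integrins and the core proteins that tie them to the cytoskeleton were followed through adult mouse bone marrow niche cells. The group was a list of 32 genes taken by symbol from the 27999 genes of the deposited table: 25 integrin chains (17 alpha and 8 beta) and 7 adaptors and kinases of the focal adhesion. Itgam was the only symbol with a second row, ENSMUSG00000108596, which held 0 UMIs. UMIs are unique molecular identifiers, each a counted RNA molecule. The series comprised 2 droplet libraries of polyA RNA from LepR-Cre;LSL-tdTomato mice of strain C57Bl/6JCrl aged 3 to 4 months. LepR_tdT held LepR-Cre;tdTomato+ bone marrow cells and EC held bone marrow endothelial cells, and both groups carried the same alleles. In these mice Cre is made under control of the leptin receptor gene, so tdTomato marks cells that express the receptor or descend from cells that did. The protocols mention tamoxifen, an intravenous antibody to VE-cadherin and enzymatic digestion under overlapping sample numbers, so the treatment of each library is uncertain, and the number of animals is not given.

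Integrins are heterodimers of 1 alpha and 1 beta chain that bind matrix or other cells outside and actin through adaptors inside. The pairing sets the ligand: chains that join beta 1 serve collagens, laminins and fibronectin, alpha V with beta 3 or beta 5 binds RGD ligands such as osteopontin and vitronectin, and beta 2 and beta 7 belong to blood cells. Talin and kindlins bind the beta tail and switch the receptor on, and integrin-linked kinase, paxillin, focal adhesion kinase and vinculin build the adhesion from there. In marrow, integrins hold stem cells to VCAM1 and fibronectin of the niche and anchor stromal and vessel cells to their matrix.

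The 4250 cells of LepR_tdT held 18139911 of its 21983361 UMIs (median 4347 per cell), and the 4536 cells of EC held 14111524 of 18152304 (median 3084.5). With 1 library per population nothing was tested, and the library, its preparation and its cell type cannot be told apart. A total of 42 cell barcodes occurred in both libraries. Levels are UMIs of a cell class per 1000000 UMIs of that class (CPM). A UMI is counted once per molecule, so CPM was not divided by transcript length. Intervals are 95% and cover counting error only. Lepr had a UMI in 78.2% of LepR_tdT cells and 4.78% of EC cells. Cdh5, the vascular cadherin, had one in 1.72% and 79.3%. After thinning each cell to 1000 UMIs, the shares were 43.8% and 1.68% for Lepr and 1.09% and 56.6% for Cdh5.

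Classes were rebuilt by clustering without the members or their partner lists and named from markers. LepR_tdT gave 2938 stromal-like, 257 osteolineage-like, 17 pericyte-like and 34 endothelial-like cells. EC gave 2245 endothelial-like cells, of which 1947 were sinusoidal-like and 246 arterial-like. The unnamed clusters stayed out of these classes. In EC they were cluster 2 (1446 cells, 31.9%), led by the immediate-early genes Apold1, Nr4a2 and Atf3, and the shallow cluster 3 (697 cells, 15.4%). In LepR_tdT they were cluster 6 (268 cells, 6.31%), led by Cxcl5 and Kit, and the shallow clusters 4 (354 cells, 8.33%) and 5 (276 cells, 6.49%). A gene counted as measured with at least 20 UMIs over the classes compared. A call required a ratio of 2 or more in either direction and an interval without equality.

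Promoter stretches of 5 integrin genes called between the main classes are shown, 3 from the stromal and 2 from the endothelial side, chosen after their values were seen and not by the size of their ratios. Each is the 250 bases before the RefSeq transcription start (GRCm38.p6), read 5′ to 3′. Capitals mark GC boxes, letters GGGCGG on either strand. In Itga3 they also mark the core that ETS factors read, CCGGAA on either strand.
Itgb5 (higher in stromal-like cells), chr16:33829415-33829664, plus strand: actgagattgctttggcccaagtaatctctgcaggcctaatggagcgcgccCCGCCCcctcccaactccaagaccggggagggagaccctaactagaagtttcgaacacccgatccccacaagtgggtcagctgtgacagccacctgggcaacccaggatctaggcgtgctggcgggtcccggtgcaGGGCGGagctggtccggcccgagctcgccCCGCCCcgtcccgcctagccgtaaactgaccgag
Itgav (higher in stromal-like cells), chr2:83724147-83724396, plus strand: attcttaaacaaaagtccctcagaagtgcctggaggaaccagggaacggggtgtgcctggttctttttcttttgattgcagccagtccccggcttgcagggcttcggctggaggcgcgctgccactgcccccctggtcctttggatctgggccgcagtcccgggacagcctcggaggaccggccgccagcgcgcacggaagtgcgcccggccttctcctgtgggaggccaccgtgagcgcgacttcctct
Itga11 (higher in stromal-like cells), chr9:62677605-62677854, plus strand: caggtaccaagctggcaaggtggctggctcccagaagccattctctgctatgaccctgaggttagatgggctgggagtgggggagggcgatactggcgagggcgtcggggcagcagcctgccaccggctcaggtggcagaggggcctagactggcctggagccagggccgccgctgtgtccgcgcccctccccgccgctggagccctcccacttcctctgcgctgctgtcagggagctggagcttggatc
Itga3 (higher in endothelial-like cells), chr11:95076715-95076964, minus strand: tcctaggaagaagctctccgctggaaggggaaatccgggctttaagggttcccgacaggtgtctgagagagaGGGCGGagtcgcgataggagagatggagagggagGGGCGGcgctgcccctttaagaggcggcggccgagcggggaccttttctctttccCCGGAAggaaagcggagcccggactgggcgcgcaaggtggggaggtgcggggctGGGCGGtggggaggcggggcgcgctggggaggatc
Itga5 (higher in endothelial-like cells), chr15:103366792-103367041, minus strand: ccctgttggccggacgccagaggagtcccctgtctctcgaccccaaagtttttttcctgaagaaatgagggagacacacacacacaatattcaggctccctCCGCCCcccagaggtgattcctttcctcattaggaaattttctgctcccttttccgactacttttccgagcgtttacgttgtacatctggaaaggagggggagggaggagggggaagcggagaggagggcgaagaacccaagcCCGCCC
Sequences were found for 23 of the 32 members, with 26 starts in all. Itga3 has a second start, not shown. The GC box stood in 10 of the 26 windows (38.5%) and in 32.7% of the 32851 windows of the table. Itgb5 and Itga3 held 3 each and Itga5 held 2, whereas Itgav and Itga11 held none. The ETS core stood in 11.5% of member windows and 12.0% of all windows. The TATA box, searched as TATAAA on both strands, was in none of the 26 and in 12.4% of all windows. The RUNX letters TGTGGT, read by the factor family of bone and blood, stood on either strand of 19.2% of member windows and 14.0% of all. The median GC share was 58.0% in member windows and 52.4% in all. GC boxes thus occurred in genes of both directions.

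**Figure D1:**
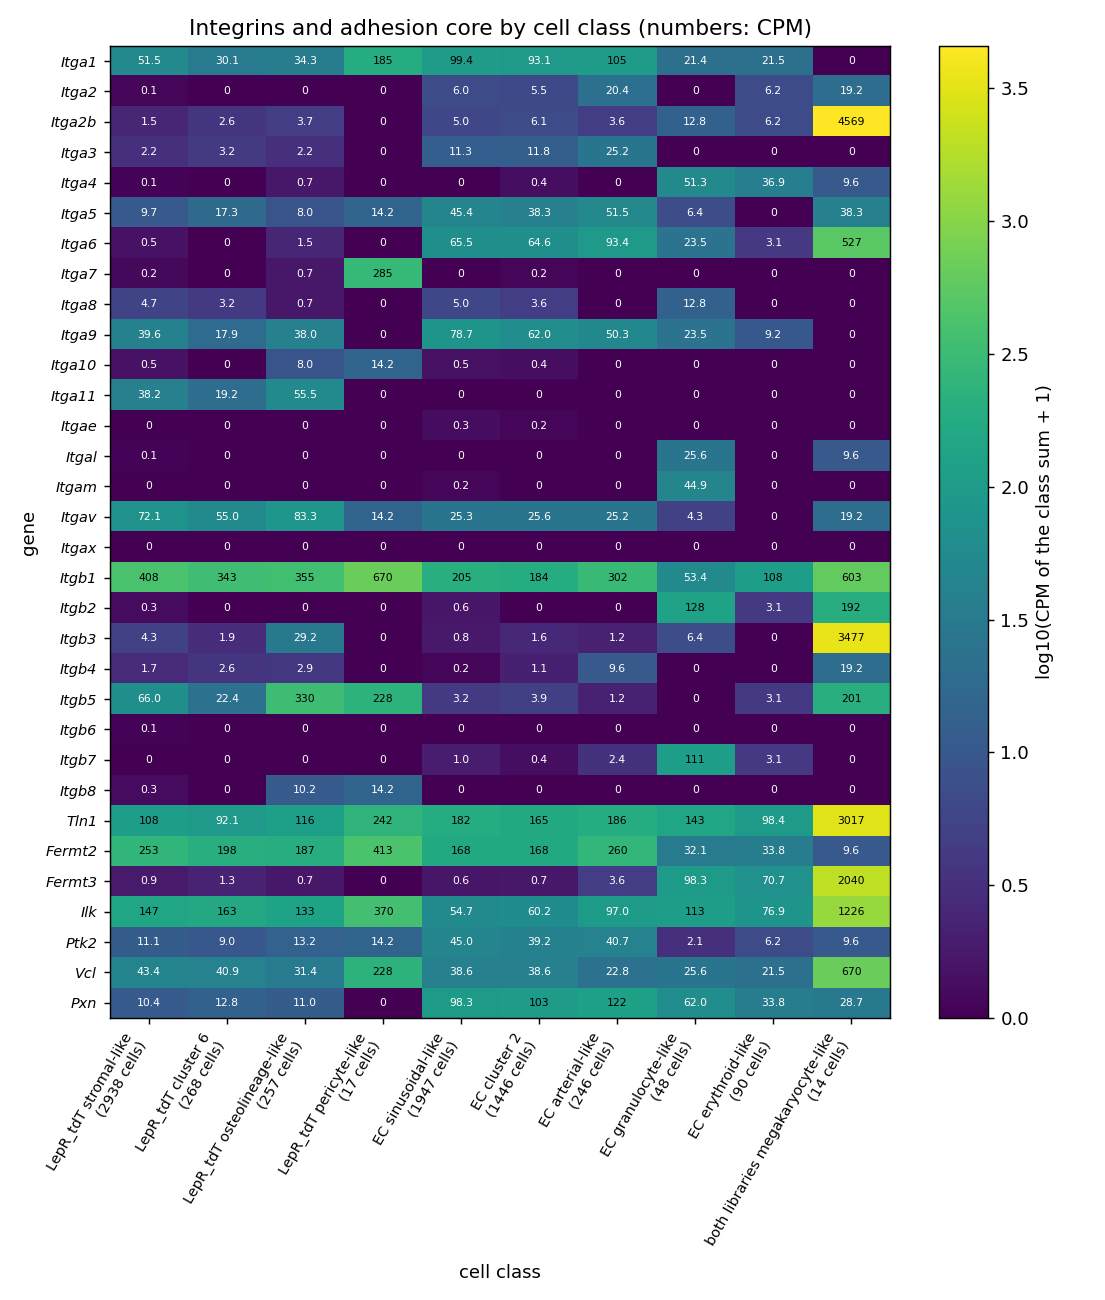
CPM of the 32 members (rows) in 10 cell classes (columns), with the colour on a log10 scale of CPM + 1 and the number in each cell giving the CPM. Itgb1 and Tln1 are present in every column, Itga11 is at 0 in the EC columns, and in the megakaryocyte-like column most UMIs of Itga2b come from 1 barcode.

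The first question was which integrin chains differ between the stromal and the vascular side of the niche. Of the 32 members, 20 were measured between stromal-like (LepR_tdT) and endothelial-like (EC) cells. Stromal-like cells were higher for 5 (Itga11, Itgav, Itgb3, Itgb5 and Ilk) and endothelial-like cells for 7 (Itga2, Itga2b, Itga3, Itga5, Itga6, Ptk2 and Pxn), while 8 passed in neither direction. The same rule called 21.1% of the 12571 measured genes higher in stromal-like cells and 17.0% higher on the endothelial side. The stromal-side count, 5 of 20, lay near its background and the endothelial-side count, 7 of 20, above it, and neither was tested. The members' median log2 ratio was -0.33 and that of all genes 0.10.

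**Figure D2:**
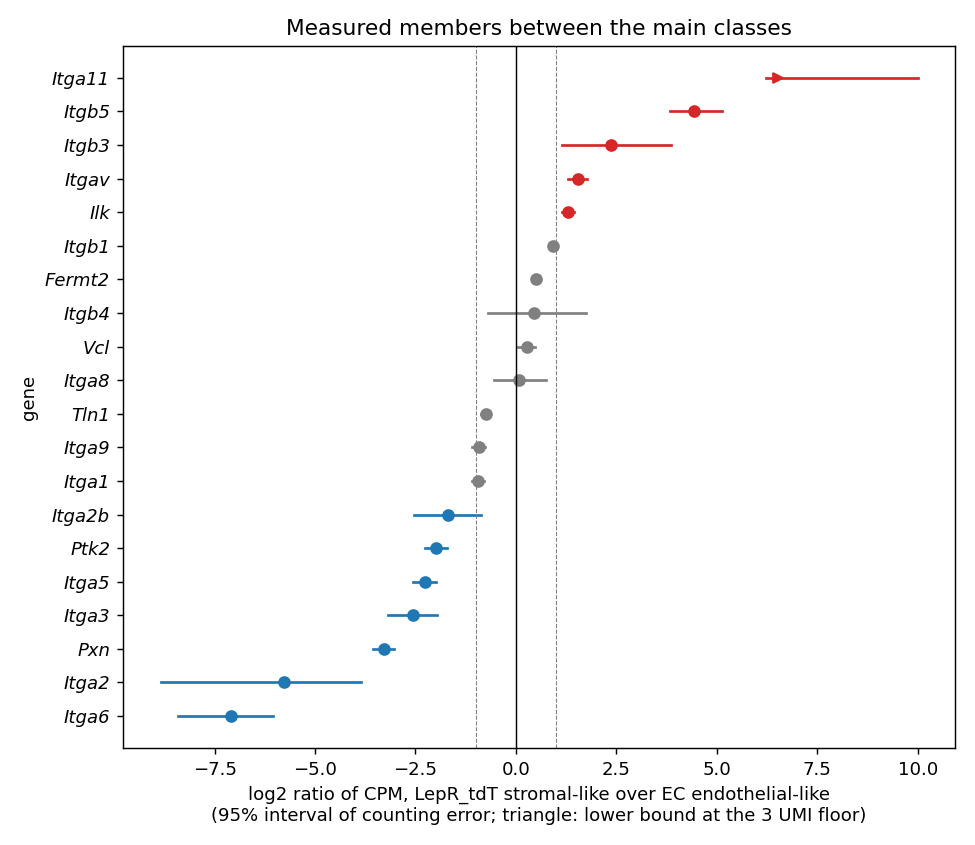
Log2 ratio of CPM (stromal-like over endothelial-like, horizontal axis) for the 20 measured members, with 95% counting intervals. Red marks the 5 called higher in stromal-like cells, blue the 7 called higher in endothelial-like cells and grey the 8 called in neither direction. The triangle of Itga11 is a lower bound.

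The integrin chains called on the stromal side were Itgb5, Itgb3 and Itgav of RGD receptors and Itga11 of a collagen receptor. Other chains of RGD and collagen receptors, Itga5, Itga2b and Itga2, were called on the endothelial side. Itgb5, the beta chain of the vitronectin receptor alpha V beta 5, had 926 UMIs in stromal-like cells (66.0 CPM, 61.8 to 70.4) against 22 in the endothelial-like class (3.04 CPM, 1.91 to 4.61). Its log2 ratio was 4.44 (3.83 to 5.12). Free RNA of EC, read from barcodes with at most 100 UMIs outside the cell table, held Itgb5 at 8.23 CPM. Haemoglobin genes put the share of free RNA at 4.28% of the endothelial-like and 4.25% of the stromal-like class, and subtracting it gave a log2 ratio of 4.60. The gene (ENSMUSG00000022817) spans chr16:33829665-33949338 on the plus strand of mm10.

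Itga11, the alpha chain of a fibrillar collagen receptor typical of fibroblasts and osteogenic cells, (ENSMUSG00000032243, chr9:62677826-62783982, plus strand) had 536 UMIs in stromal-like cells (38.2 CPM) against 0 in the endothelial-like class. At a floor of 3 UMIs per class this was at least 92.0-fold higher. Over all cells it had 671 UMIs in LepR_tdT and 0 in EC. Within LepR_tdT, Itga11 was also at 0 in the pericyte-like cells, but 3 UMIs there would already be 42.7 CPM, so a level like the stromal one could not be told from 0.

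Itgav, which supplies the alpha V chain, stood at 72.1 CPM in stromal-like cells against 24.9 CPM in the endothelial-like class, with a log2 ratio of 1.53 (1.30 to 1.77). Itgb3, the other classical partner of alpha V, was low in both, at 4.28 and 0.83 CPM (60 and 6 UMIs), with a log2 ratio of 2.36 (1.16 to 3.87). Itgav thus had 1012 and 180 UMIs on the respective sides, whereas nearly all UMIs of its partner Itgb5 lay on the stromal side.

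On the endothelial side, chains of laminin, collagen and fibronectin receptors were higher. Itga6, an alpha chain of laminin receptors (ENSMUSG00000027111, chr2:71745616-71858416, plus strand), had 494 UMIs in endothelial-like cells (68.3 CPM) and 7 in stromal-like cells (0.50 CPM), with a log2 ratio of -7.10 (-8.42 to -6.04). The free RNA of LepR_tdT held Itga6 at 32.6 CPM, far above the stromal-like cells themselves. Itga3, a second laminin receptor chain, had 94 and 31 UMIs (13.0 against 2.21 CPM) and a log2 ratio of -2.56 (-3.19 to -1.96).

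Itga5, the chain of the fibronectin receptor, stood at 46.9 CPM in endothelial-like cells against 9.69 CPM in the stromal-like class, a log2 ratio of -2.27 (-2.57 to -1.98). Itga2, a collagen receptor chain, had 56 UMIs against 2 (7.75 and 0.14 CPM), with a log2 ratio of -5.76 (-8.85 to -3.84). The 4 called collagen and laminin chains thus split by cell side: alpha 11 lay on the stromal side, and alpha 2, alpha 3 and alpha 6 on the endothelial side.

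Itga2b, the platelet integrin chain, was also called higher in endothelial-like cells, with 35 against 21 UMIs (4.84 and 1.5 CPM). Its endothelial-like level lay below the 6.24 CPM in EC free RNA, and its stromal-like level below the 36.5 CPM in LepR_tdT free RNA. The platelet marker set summed to 46.3 CPM in the endothelial-like class and 41.0 CPM in the stromal-like class. The part of free RNA in this call was not tested beyond a subtraction. The free RNA subtracted was more than all stromal-like Itga2b UMIs, so none were left. The log2 ratio then moved from -1.69 to -4.42, a value set by the UMI floor and not a measured ratio. It therefore cannot show whether the call is stronger without free RNA.

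Itgb1, the common partner of most alpha chains, was the most abundant integrin by CPM on both sides. It had 5725 UMIs in stromal-like cells (408 CPM) against 1557 in the endothelial-like class (215 CPM). The log2 ratio of 0.92 (0.84 to 1.00) stayed under the fold of 2. Itga1, a collagen and laminin receptor chain, and Itga9, a receptor chain for tenascin and VCAM1, stood on the other side of equality, at -0.95 and -0.93. Both were within a fold of 2: 51.5 and 99.3 CPM for Itga1, 39.6 and 75.5 CPM for Itga9. Itga8 was at 4.70 and 4.43 CPM and Itgb4 at 1.71 and 1.25 CPM.

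Among the intracellular core, the talin, kindlin-2 and vinculin genes stayed within a fold of 2, whereas Ilk, Ptk2 and Pxn did not. Fermt2, which encodes kindlin-2, stood at 253 CPM in stromal-like cells against 178 CPM in the endothelial-like class. Tln1, talin-1, was at 108 and 182 CPM, and Vcl, vinculin, at 43.4 and 36.0 CPM. These 3 were called in neither direction. Ilk, integrin-linked kinase, was higher in stromal-like cells at 147 against 59.8 CPM, with a log2 ratio of 1.30 (1.15 to 1.45).

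Pxn, paxillin (ENSMUSG00000029528, chr5:115506676-115555987, plus strand), went the other way with 736 UMIs (102 CPM) in endothelial-like cells against 146 (10.4 CPM) in the stromal-like class, a log2 ratio of -3.29 (-3.56 to -3.03). Ptk2, focal adhesion kinase, which binds paxillin, had 318 and 156 UMIs (44.0 and 11.1 CPM), a log2 ratio of -1.98 (-2.27 to -1.70). Both were thus higher where Itga5 and Itga6 were also higher. The 12 members under 20 UMIs between these classes were Itga4, Itga7, Itga10, Itgae, Itgal, Itgam, Itgax, Itgb2, Itgb6, Itgb7, Itgb8 and Fermt3. Fermt3, the kindlin of blood cells, had 12 and 7 UMIs.

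The partners around the integrins were described from lists of pathway genes. Of 52 cytoplasmic partners, 49 were measured, with 11 higher in stromal-like cells and 19 in the endothelial-like class and a median log2 ratio of -0.20. Over all measured genes the shares were 21.1% and 17.0% and the median was 0.10. The stromal-side count thus lay near its background and the endothelial-side count above it, and neither was tested. Tln2, the second talin, had 154 CPM in stromal-like cells against 2.08 CPM in the endothelial-like class (log2 ratio 6.21). Tgfb1i1, a relative of paxillin also called Hic-5, had 131 and 23.1 CPM (2.5). Enah and Trip6, which act at actin ends and LIM complexes, were at 2.06 and 1.84.

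On the endothelial side, Parvb, a parvin that binds integrin-linked kinase, had 39.4 CPM against 0.50 (-6.30). Kank3, whose family binds talin, had 268 CPM against 3.56 (-6.23). The kinase Fyn and the exchange factor Vav3 had log2 ratios of -5.17 and -4.78. For talin and paxillin, the shared or endothelial gene among the members (Tln1, Pxn) thus had a relative (Tln2, Tgfb1i1) that was higher on the stromal side.

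All 16 membrane partners were measured, with 6 higher in stromal-like cells, 6 in the endothelial-like class and a median of 0.21 (all genes: 21.1%, 17.0% and 0.10). The syndecans, heparan sulfate carriers that assist integrins, were divided. Sdc2 had 5262 UMIs in stromal-like cells against 1 in the endothelial-like class (log2 ratio 11.40, 8.93 to 16.71), Sdc1 stood at 6.33 and Sdc4 at 2.47, but Sdc3 at -2.88. The scavenger receptor and integrin neighbour Cd36 had 416 CPM in endothelial-like cells against 0.71 CPM in the stromal-like class (-9.19), and Cav1, caveolin-1, was at -7.53 (-10.58 to -5.65) with 2 UMIs in the stromal-like class.

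Of 38 integrin ligand genes, 37 were measured, with 18 higher in stromal-like cells against 10 in the endothelial-like class and a median of 0.95 (all genes: 21.1%, 17.0% and 0.10). The clustering could use these genes, so their class levels describe the classes. Over whole libraries, which no clustering defined, osteopontin (Spp1) stood at 8190 CPM in LepR_tdT and 1.56 CPM in EC, and bone sialoprotein (Ibsp) at 6289 and 2.98 CPM. Both carry the RGD motif read by alpha V integrins. Tnc, tenascin-C, a ligand of alpha 9 beta 1, had 904 CPM and 0.07 CPM. Vcam1, the ligand of alpha 4 and alpha 9 beta 1, was nearly equal at 1895 and 1885 CPM. Npnt, nephronectin, a ligand of alpha 8 beta 1, was on the endothelial side at 90.5 against 5.18 CPM, as was Icam2, a ligand of beta 2 integrins, at 258 against 6.23 CPM.

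Over the whole libraries, 29 members were measured, with 11 higher in LepR_tdT and 9 in EC, against backgrounds of 20.9% and 17.6% of 13456 genes. Those of LepR_tdT were Itga2b, Itga7, Itga10, Itga11, Itgav, Itgb1, Itgb3, Itgb5, Itgb8, Fermt3 and Ilk, and those of EC were Itga2, Itga3, Itga4, Itga5, Itga6, Itgam, Itgb7, Ptk2 and Pxn. Most LepR_tdT UMIs of 3 platelet-linked members among them lay in 1 barcode. Itga2b stood at 28.3 CPM in LepR_tdT and 5.67 CPM in EC, Itgb3 at 25.8 and 1.49 CPM, and Fermt3 at 13.6 and 6.59 CPM. A single megakaryocyte-like barcode of LepR_tdT with 87778 UMIs held 474 of the 513 Itga2b UMIs (92.4%), 360 of 468 for Itgb3 (76.9%) and 193 of 246 for Fermt3 (78.5%). It also held 55 of the 78 Itga6 UMIs of that library (70.5%).

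The same barcode sequence was in the cell table of EC with 375 UMIs, where the cell was also megakaryocyte-like and held 1 Itga2b and 2 Itgb3 UMIs. Without the 14 megakaryocyte-like cells, an alternative chosen after seeing the data, the whole-library log2 ratio of Itga2b turned from 2.32 to -1.39 and that of Fermt3 from 1.04 to -1.15. Itgb3 fell from 4.12 to 2.23 and stayed on the LepR_tdT side. The stromal-like and endothelial-like classes hold none of these cells.

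**Figure D3:**
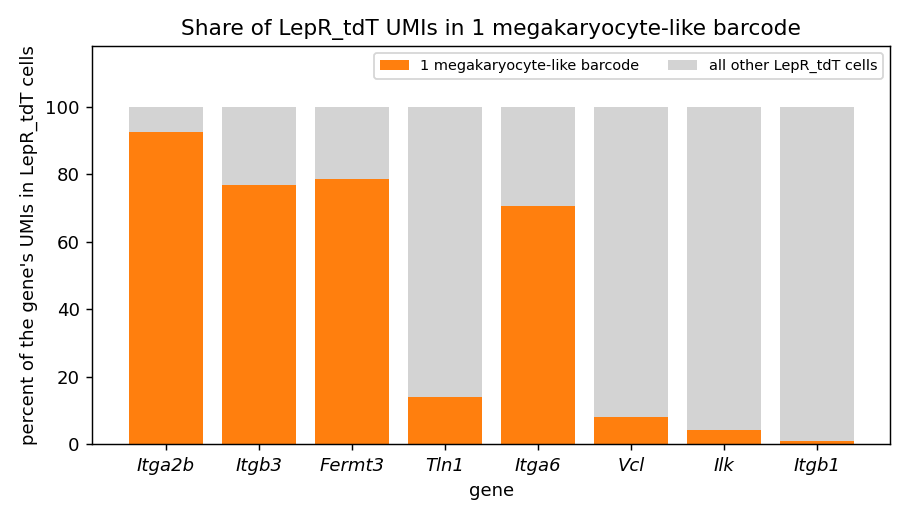
Percent of each gene's UMIs in LepR_tdT cells that lay in 1 megakaryocyte-like barcode (orange) and in all other cells (grey), for 8 members. The barcode held 92.4% of Itga2b, 76.9% of Itgb3, 78.5% of Fermt3 and 70.5% of Itga6, but 0.87% of Itgb1.

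Among the megakaryocyte-like cells, 14 over both libraries, the chains of the platelet receptor lay mainly in 1 barcode. Itga2b had a UMI in 4 of the 14 cells, and that barcode held 474 of their 477 Itga2b UMIs. In that 1 deep barcode Itga2b stood at 5400 CPM and Itgb3 at 4101 CPM, the chains of the fibrinogen receptor alpha IIb beta 3. Tln1 (3566 CPM), Fermt3 (2199 CPM), Ilk (1299 CPM) and Vcl (763 CPM), the adaptors that act on it, were also high in it. This is 1 barcode and carries no spread between cells.

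Within LepR_tdT, 34 endothelial-like cells were set against the stromal-like cells of the same preparation. Of 18 measured members, 4 were higher in endothelial-like cells (background 7.6%): Itga2b (4 UMIs), Itga3 (2 UMIs), Itga9 (9 UMIs) and Pxn (6 UMIs). Stromal-like cells were higher for Itgb1 and Ilk (background 6.37%). Pxn had a log2 ratio of 2.65 (1.18 to 3.81) and Ilk one of -1.17 (-2.62 to -0.04). Itga6, under the UMI minimum, had 7 UMIs in both classes, 76.3 CPM in the 34 endothelial-like cells and 0.50 CPM in 2938 stromal-like cells. TMM scaling, which sets the bulk of genes equal, moved all log2 ratios of this comparison by -0.25, which gave 2 endothelial calls in place of 4. Thinning each cell to 1000 UMIs gave 0 calls on either side, and leaving out cells with a UMI of a blood marker gave 1 endothelial call. Of 47 measured cytoplasmic partners, 14 were higher in these 34 cells and 5 lower. Kank3 (24 UMIs), Fyn (11 UMIs) and Vav3 (4 UMIs) were higher at 6.20, 5.29 and 4.09. Tln2 (2 UMIs) was lower at -2.82 (-5.87 to -0.97) and Tgfb1i1 (1 UMI) at -3.58 (-8.89 to -1.10). The comparison shares its stromal-like cells with the one between the libraries, so the 2 are not independent.

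Among EC vessel types, Itga2 and Itga3 were higher in the arterial-like cells. Of 17 measured members, 2 were higher in arterial-like cells (background 7.65%) and 1 in sinusoidal-like cells (4.39%). Both counts are small and lay near these backgrounds, and neither was tested. Itga2 had 17 UMIs in 246 arterial-like cells (20.4 CPM, 11.9 to 32.6) and 37 in 1947 sinusoidal-like cells (5.95 CPM, 4.19 to 8.20). Its log2 ratio was 1.77 (0.85 to 2.64). Itga3 had 21 and 70 UMIs (25.2 and 11.3 CPM) and a log2 ratio of 1.16 (0.38 to 1.88).

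TMM scaling moves every ratio here by -0.18, which puts Itga3 under the fold of 2. Itga6 (93.4 against 65.5 CPM) and Itgb1 (302 against 205 CPM) had log2 ratios of 0.51 and 0.56, under the call. Itgb4, which joins alpha 6 in the hemidesmosome receptor, had 8 UMIs in arterial-like cells against 1 in the sinusoidal-like class, too few to be measured. Its CPM was 9.58 in the former and 0.16 in the latter.

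Itga8, a receptor chain for nephronectin, had 0 UMIs in arterial-like cells against 31 in the sinusoidal-like class (4.99 CPM). The rule called it sinusoidal, but at the floor the difference was only at least 1.39-fold, and the call was lost when cluster 2 was counted as sinusoidal-like. Of 44 measured cytoplasmic partners, 7 were arterial (background 7.65%) and 1 sinusoidal (4.39%). Lims2, a partner of integrin-linked kinase, had 150 CPM in arterial-like cells against 2.57 CPM in the sinusoidal-like class (log2 ratio 5.86). Kank1 was on the sinusoidal side at -2.48. Among 14 measured membrane partners, Cav1 had 195 and 4.02 CPM (5.60), and Cd151, a tetraspanin that binds laminin-receptor integrins, 298 and 145 CPM (1.04).

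**Figure D4:**
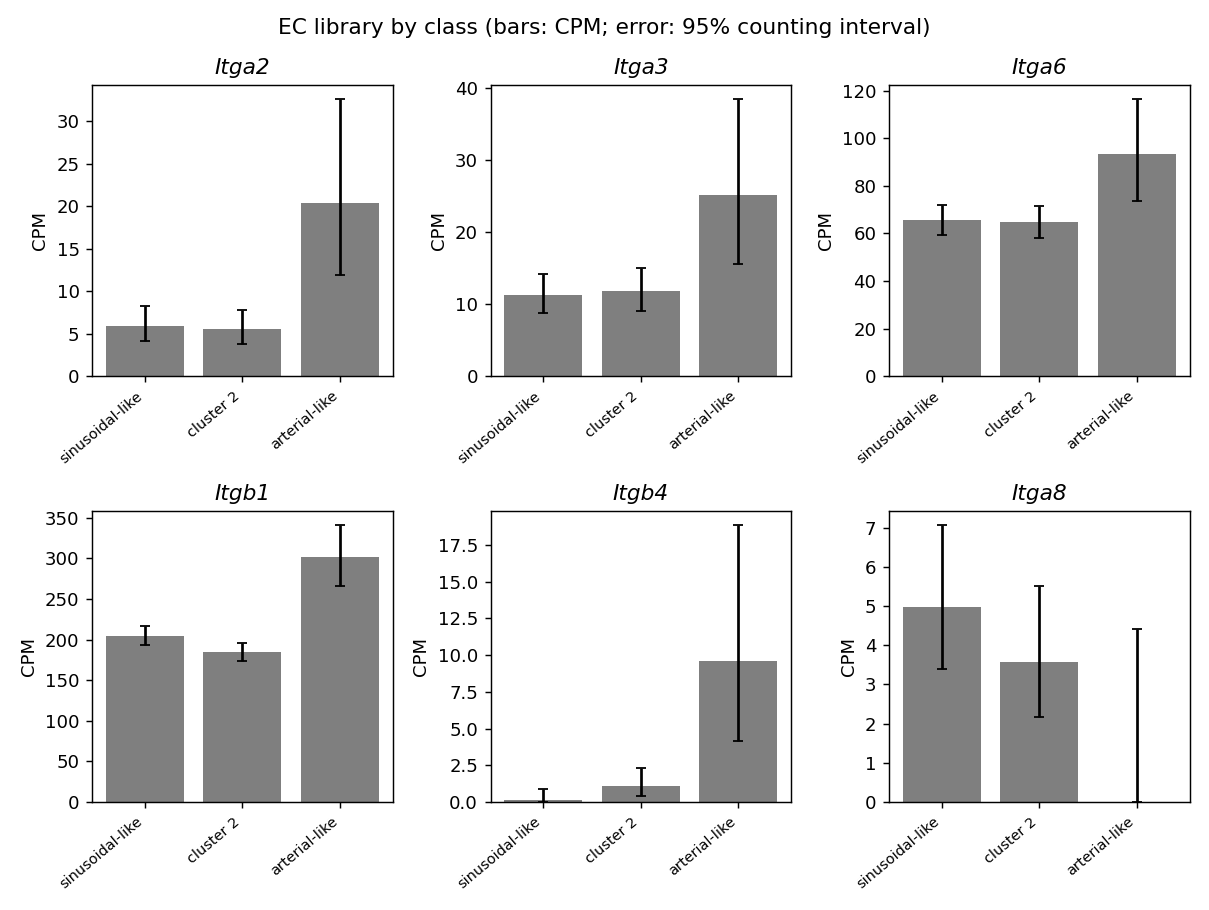
CPM (bars, from 0) with 95% counting intervals of 6 integrin chains in the sinusoidal-like cells, cluster 2 and the arterial-like cells of EC. Itga2, Itga3, Itga6, Itgb1 and Itgb4 have their highest bar in the arterial-like cells, and cluster 2 lies close to the sinusoidal-like cells.

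No member was called between the stress-led cluster 2 of EC and the sinusoidal-like cells. All 12 endothelial markers were higher in it than in other cells, and it stayed unnamed because a pericyte marker, Rgs4, was among its leading genes. Of 17 measured members, 0 were called in either direction, with backgrounds of 1.89% and 0.621%. The 17 log2 ratios ran from -0.49 for Itga8 to 0.28 for Itgb5. The 44 measured cytoplasmic partners and 14 membrane partners had 0 calls as well. Among 21 measured ligands, Cyr61 (478 against 69.3 CPM) and Icam1 (267 against 116 CPM) were higher in cluster 2, and both are immediate-early or inflammatory genes.

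Itgb5 and Itgb3, the beta partners of alpha V, were higher on the bone-forming side of LepR_tdT. Of 18 measured members, 2 were higher in osteolineage-like cells (background 4.89%), 1 was higher in stromal-like cells (5.61%) and 15 passed in neither direction. Itgb5 had 452 UMIs in 257 osteolineage-like cells (330.3 CPM, 300.6 to 362). The stromal-like class stood at 66.0 CPM, giving a log2 ratio of 2.32 (2.16 to 2.49). A UMI of Itgb5 was seen in 25.2% of osteolineage-like and 6.53% of stromal-like cells after thinning each cell to 1000 UMIs, and in 61.5% and 25.5% without thinning. The median depths were 4957 and 4631.5 UMIs. Itgb5 in EC endothelial-like cells was seen in 0.27% of thinned cells.

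Itgb3, which makes the osteopontin receptor with alpha V, had 40 UMIs (29.2 CPM, 20.9 to 39.8) against 4.28 CPM, a log2 ratio of 2.77 (2.16 to 3.37). Itgb8 had 14 against 4 UMIs (10.2 and 0.29 CPM) and Itga10, a cartilage collagen receptor chain, 11 against 7 (8.04 and 0.50 CPM). Neither reached 20 UMIs. Itgav itself was similar, at 83.3 and 72.1 CPM (log2 ratio 0.21, -0.08 to 0.49). Itga11 was higher by less than a fold of 2, at 55.5 and 38.2 CPM (0.54, 0.17 to 0.89). Itgb3 and Itgb5 were thus called higher in the osteolineage-like cells, while the interval of Itgav included equality. Itgb1, which also pairs with alpha V, stood at 355 against 408 CPM, under the call.

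Erythroid markers moved with this comparison. They summed to 2950 CPM in osteolineage-like and 205 CPM in stromal-like cells, 8 of 11 and 10 of 11 with a UMI. The 20 erythroid-like cells of LepR_tdT held 3 UMIs of Itgb5 (37.9 CPM) and 0 UMIs of Itgb3. Megakaryocyte or platelet markers summed to 46.8 and 41.0 CPM, and Itga2b had 5 UMIs in the osteolineage-like cells. Without cells holding a UMI of a blood marker, the log2 ratio of Itgb5 was 2.27 and that of Itgb3 3.13. With free RNA subtracted at the 67.4% share that haemoglobin genes give for osteolineage-like cells, they were 3.52 and 3.44. The same genes gave 4.25% for the stromal-like cells of the same library. The estimate takes all haemoglobin UMIs of a class as free RNA, so this subtraction cannot tell free RNA from other haemoglobin sources. The part of other cells' RNA in the result was not tested beyond these alternatives.

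Itga8 was the 1 member higher in stromal-like cells, with 1 UMI in osteolineage-like and 66 in stromal-like cells (log2 ratio -2.69, -8.01 to -0.16). There was no call on that side after thinning, at a minimum of 100 UMIs, at clustering resolution 1.0 or without cells holding a blood marker UMI. The cytoplasmic partners had 3 of 46 measured higher in osteolineage-like cells (background 4.89%) and 2 lower (5.61%). Tns1, a tensin of mature adhesions, was lower in osteolineage-like cells at -1.34. Tspan8 and Cd151, tetraspanins, were lower at -4.35 (-6.64 to -2.80, 3 UMIs) and -1.56, while Sdc3 was higher at 2.73.

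**Figure D5:**
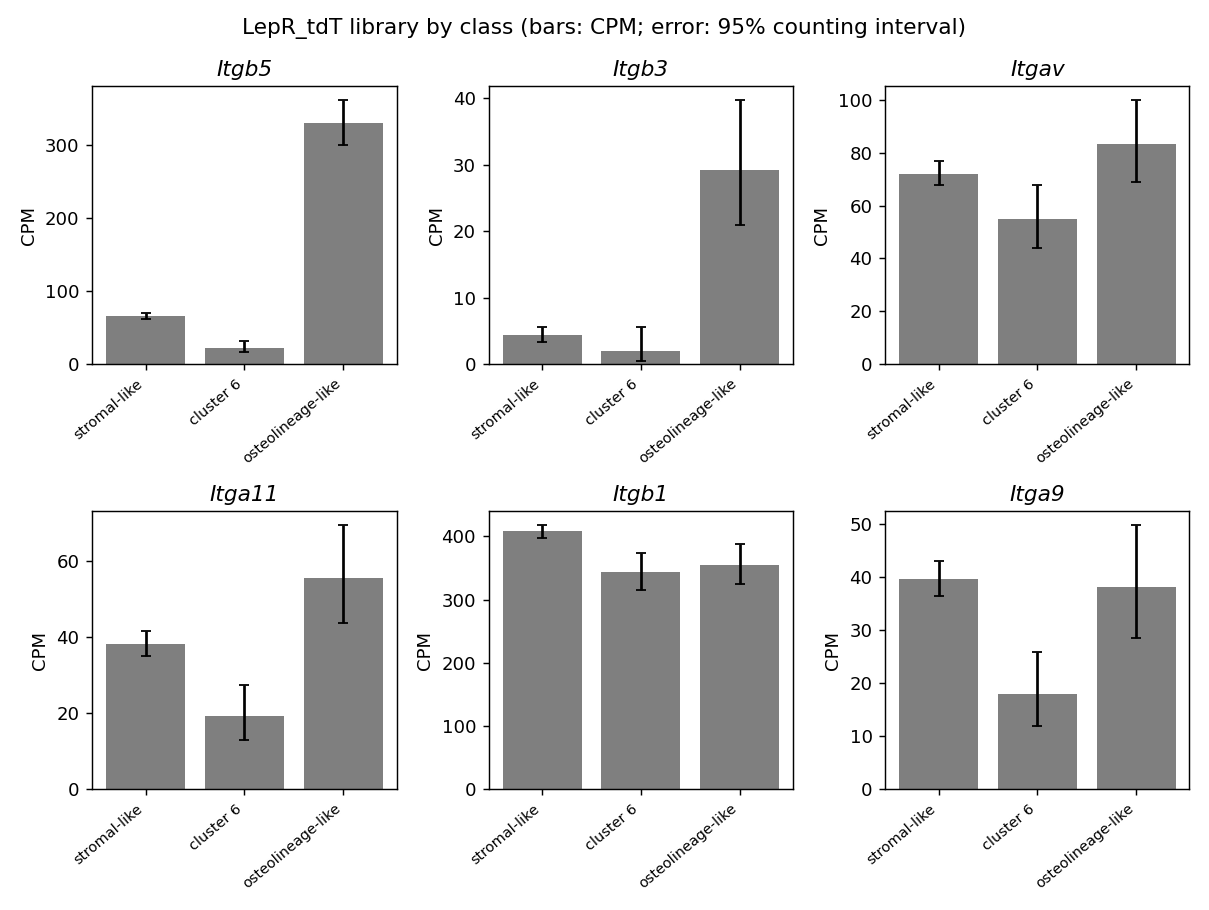
CPM (bars, from 0) with 95% counting intervals of 6 integrin chains in stromal-like cells, cluster 6 and osteolineage-like cells of LepR_tdT. Itgb5 and Itgb3 rise steeply in the osteolineage-like bar, whereas Itgav, Itgb1 and Itga9 of that class lie near the stromal-like bar.

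Cluster 6 of LepR_tdT had 2 of 18 measured members lower than in stromal-like cells (background 3.67%) and 0 higher (3.18%). The comparison was chosen once the clusters were known. Itgb5 stood at 22.4 against 66.0 CPM (log2 ratio -1.56, -2.09 to -1.07) and Itga9 at 17.9 against 39.6 CPM (-1.15, -1.75 to -0.60). Itga11 missed the fold narrowly at 19.2 CPM (-0.99). Among cytoplasmic partners, Tln2 was lower at -1.22 and Apbb1ip, which carries Rap1 signals to talin, was higher at 1.92. Itgb5 thus took its lowest level in cluster 6, a middle level in the stromal-like cells and its highest in the osteolineage-like cells, and the 3 counting intervals did not overlap.

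At a finer clustering most stromal-like cells divided into 3 clusters of 1765, 718 and 405 cells. Itgb1 ran from 382 to 417 CPM over the 3, Itgav from 67.6 to 75.4, Itga11 from 37.1 to 38.6 and Itga9 from 38.0 to 42.2. Itgb5 ran from 52.9 to 69.1 CPM and Itga8 from 2.54 to 6.64. Fermt2 was lower in the cluster of 718 cells, at 218 CPM (204 to 234), than in those of 1765 cells (271 CPM, 259.7 to 283) and 405 cells (258 CPM, 236 to 281), and its interval there overlapped neither of the others. The cluster of 405 cells had the lowest Itgb5 and the highest Itga5 (13.7 CPM against 8.55 and 9.83), with overlapping intervals.

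The 17 pericyte-like cells held most of the Itga7 of the library. Itga7, the laminin receptor chain of muscle, had 20 of its 24 LepR_tdT UMIs in them (285 CPM, 174 to 440.1). It was seen in 11 of the 17 cells (64.7%). Itga1 (185 CPM), Itgb1 (669.7 CPM), Itgb5 (228 CPM), Vcl (228 CPM) and Ilk (370.4 CPM) were also high there, on 13 to 47 UMIs. Pericyte or smooth muscle markers were all 11 detected, and endothelial markers were at 0 for 7 of 12.

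The blood-cell integrins lay mainly in the blood-cell classes. Itgb2, the beta chain of leukocyte integrins, stood at 128 CPM in the 48 granulocyte-like cells of EC and 102 CPM in the 31 of LepR_tdT, but at 0.69 CPM in EC endothelial-like cells. Itgam had 21 and 12 UMIs in these granulocyte-like cells, of 22 and 12 in the whole libraries. Itgb7 stood at 111 and 87.7 CPM there, Itgal, the alpha chain of LFA-1, at 25.6 and 24.6 CPM, and Itga4 at 51.3 and 28.1 CPM. Itga4, the VCAM1 receptor chain of blood progenitors, also had 12 UMIs in the 90 erythroid-like EC cells (36.9 CPM) and 0 in the EC endothelial-like cells. Itgax had 0 UMIs in the cells of both libraries, and 3 UMIs would be 0.17 CPM in LepR_tdT and 0.21 CPM in EC. Itgb6, the epithelial partner of alpha V, had 1 UMI and Itgae had 4.

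Pairing the chains by class gave few pairs outside beta 1 with both transcripts present. Of 23 known pairs, both chains reached 10 CPM for 5 in stromal-like, 7 in osteolineage-like, 6 in sinusoidal-like, 7 in arterial-like and 8 in EC granulocyte-like cells. In stromal-like cells these were alpha 1, alpha 9, alpha 11 and alpha V with beta 1, and alpha V with beta 5. Sinusoidal-like cells had alpha 1, alpha 3, alpha 5, alpha 6, alpha 9 and alpha V with beta 1, and arterial-like cells added alpha 2 beta 1. Osteolineage-like cells kept the 5 stromal pairs and added alpha V beta 3 and alpha V beta 8. The cut took no account of counting error, so some differences between classes rest on values near it. Itga5 in stromal-like cells fell just under it at 9.69 CPM (8.13 to 11.5). Itga3 in sinusoidal-like cells lay just over it at 11.3 CPM (8.78 to 14.2), as did Itgb8 in osteolineage-like cells. The granulocyte-like cells had alpha L and alpha M with beta 2 and alpha 4 with beta 7 and beta 1, among others.

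In each of the stromal and endothelial pairs with beta 1, the alpha chain was the lower of the pair. For alpha V beta 5 the lower chain was beta 5 in stromal-like cells (66.0 against 72.1 CPM) and alpha V in osteolineage-like cells (83.3 against 330.3 CPM). Cells with both chains were rare at 1000 UMIs per cell. Itgav and Itgb1 were seen together in 2.43% of stromal-like cells (1.90 to 3.05), and the product of the single shares was 2.38%. Itga6 and Itgb1 were together in 0.99% of sinusoidal-like cells (0.60 to 1.55, product 1.10%) and in 4.07% of arterial-like cells (1.88 to 7.59, product 2.60%). Itgav and Itgb5 were together in 2.76% of osteolineage-like cells (1.12 to 5.60, product 2.38%). Each product lay within the interval of the observed share, so co-detection beyond that of independent chains was not detectable at this depth.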

How the data were processed

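Both libraries came as 1 table of UMI counts per gene and barcode, deposited by the authors, empty droplets included, with a cell table giving library, UMIs and genes. The submitters' processing notes list Cell Ranger 2.1.1, Seurat 2.3.4 and mm10 without saying what each did. UMI totals recomputed here matched the table for all 4536 EC and 4250 LepR_tdT cells.

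The 2000 most variable genes, without members, cytoplasmic and membrane partners, mitochondrial genes and tdTomato (1570 left), were reduced to 30 components and clustered by Leiden at resolution 0.5, best of 20 seeds, in scanpy 1.11.5. Clusters were named from marker sets. UMIs were summed by class and given as CPM, with exact Poisson, exact binomial and Clopper-Pearson intervals at 95% and no test. A floor of 3 UMIs per class entered the median log2 ratios, and a gene's own ratio only where a class had no UMI. Other ratios were left as counted, also where a class had fewer UMIs than the floor. The call rule was tested on simulated data.

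The members and lists were chosen with earlier results of these data known. All members were named, and the partners named came from the 4 highest and 4 lowest ratios of each list among genes reaching 20 CPM. Promoters to print were chosen after the members' values were seen, and come from RefSeq (GRCm38.p6). Scrublet called 0.198% of EC and 0.235% of LepR_tdT cells doublets, too few to have worked, so doublets were not removed. Alternatives are listed in the closing section. edgeR 4.0.16 and DESeq2 1.42.0 supplied only scaling factors. Protein sequences were not used here. One other cell type's marker sum and the leading genes of the finer stromal clusters are not reported here.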

Additional observations from a re-analysis of the deposited data

Results flagged for a closer look

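Itgax in both libraries and Itga11 in EC had 0 UMIs in cells but some in barcodes outside the cell table. Itgax, the alpha chain of a beta 2 integrin of dendritic cells and macrophages, had 11 such UMIs in LepR_tdT and 4 in EC. Itga11 had 4 in EC. Each count exceeds the chosen floor of 3 UMIs, and its source was not tested. The totals are unlike: these barcodes, with at most 100 UMIs each, held 3343674 UMIs in LepR_tdT and 3525237 in EC. The cells held 18139911 and 14111524.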

How the results depend on the processing

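No paired analysis was possible because each population is a single library. Of 673 alternative values of the 46 called ratios, 611 stayed within their counting interval with the same direction, 50 moved further and 12 reversed. A further 13 values could not be formed. The settings of at least 5 UMIs, at least 100 UMIs, a fold of 1.5 and a fold of 4 change only the call, not the ratio. The 46 values of each were therefore the same by construction and say nothing of stability. All reversals lay between whole libraries. Itga2b turned from 2.32 to -0.54 thinned to 1000 UMIs per cell, -0.44 as the mean of per-cell CPM, -1.37 without barcodes shared by both libraries, -1.60 without cells holding a blood marker UMI, -1.39 without megakaryocyte-like cells and -1.42 without cells over 3 times the median UMIs. Fermt3 turned from 1.04 to -0.066 (thinned), -1.15 (shared barcodes), -1.15 (megakaryocyte-like) and -0.27 (over 3 times). Itgam became 1.18 without cells over 3 times the median, and Itgb7 0.49 without blood marker cells. The causes were not tested. Counting cluster 2 as endothelial-like and leaving out megakaryocyte-like or deep cells were chosen after seeing the data.

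Counts of members called moved as follows. Stromal-like against endothelial-like, 5 became 3 at a fold of 4. Whole libraries, 11 in LepR_tdT became 6 thinned, 7 with free RNA subtracted, 5 without blood marker cells and 6 at a fold of 4, and 9 in EC became 5 at 100 UMIs and 4 at a fold of 4. The free RNA shares subtracted there were 36.7% for LepR_tdT and 64.4% for EC, and they count the haemoglobin of erythroid-like cells as free RNA. Within LepR_tdT, 4 became 2 under TMM, 2 under median-ratio scaling, 2 at 100 UMIs, 0 thinned and 1 without blood marker cells, and the 2 of stromal-like cells became 0 thinned, 0 at a fold of 4 and 4 with cluster 2. Arterial-like, 2 became 1 under TMM, 1 under median-ratio scaling, 0 at 100 UMIs, 1 thinned, 1 without blood marker cells, 4 at a fold of 1.5 and 0 at a fold of 4. Sinusoidal-like, 1 became 0 at 100 UMIs, thinned, without blood marker cells, without deep cells and with cluster 2, and 3 at a fold of 1.5. Osteolineage-like, 2 became 4 at 5 UMIs, and the 1 of stromal-like cells became 0 at 100 UMIs, thinned, at clustering resolution 1.0 and without blood marker cells, and 2 with free RNA subtracted. Cluster 6, 0 became 1 at a fold of 1.5, and the 2 of stromal-like cells became 4 at 1.5 and 0 at 4. Cells with both chains rose with depth: Itgav and Itgb1 in stromal-like cells from 2.43% to 7.33% at 2000 UMIs and 23.6% unthinned, Itgav and Itgb5 in osteolineage-like cells from 2.76% to 6.5% and 22.6%, Itga6 and Itgb1 in sinusoidal-like cells from 0.99% to 4.01% and 8.68%. Leaving out the stress-led cluster was not run, since it is in no named class, and resolution 1.0 gave no sinusoidal-like class. Leaving out the called doublets changed no count by more than 1.5 times and left all 46 ratios the same. So few cells were called that this says nothing of stability. Single libraries leave variation between animals unknown.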
